A study of Rattus norvegicus with 2 samples.

Results

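Collagen chains, elastin and lysyl oxidase, the fibre-forming proteins of the vessel wall and heart and the enzyme that cross-links them, were examined in cultured rat endothelial cells from the endocardium and from the aorta. The members were 10 named genes, each represented by every probe set that the platform annotation pairs with its symbol and no other. The rule found 17 probe sets of 9 genes among 8740 probe sets that are not array controls. Col4a1, the basement membrane member, had no probe set paired with its symbol alone, and its level is not analysed here.

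Both groups came from the same 2 rats. Endocardial endothelial cells, from the lining of the heart chambers, formed the first group and aortic endothelial cells the other. Cells were pooled by origin and grown for 2 passages in culture conditions and at a confluence held as alike as could be managed, and total RNA of each pool was hybridised to 1 Affymetrix rat genome U34A array. The strain, sex and age of the rats are not given in the sources used here. With 1 array per group there is no replicate and no test, and each difference below compares these 2 arrays of passaged, pooled cells. In such pools, fewer cells of a type and less RNA per cell cannot be told apart.

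Fibrillar collagens are secreted as triple-helical procollagens that lose their end propeptides and pack side by side into fibrils. Types I and III make up the bulk of vascular fibrils, while the minor chains of types V and XI sit within the fibril and are known to limit its width. Lysyl oxidase, encoded by Lox, oxidises lysine residues of collagen and of tropoelastin, and the resulting aldehydes form the covalent cross-links that make collagen fibrils stiff and elastic fibres insoluble. In the aorta, elastin is laid down mainly by smooth muscle cells early in life.

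The data show a large difference in Lox and Col11a1 and a small one in the abundant fibrillar chains. Lox was 2.89-fold lower on the endocardial array, as the median over 4 probe sets that were all lower. With the stricter limit given below as the floor, Lox was 2.55-fold lower and Col11a1 at least 3.44-fold lower. The chains Col1a1, Col1a2 and Col3a1 differed by at most 1.20-fold in their gene values, and the type V chains Col5a1 and Col5a2 lay between, 1.67-fold and 1.37-fold lower on the endocardial array. Ratios are given as endocardial over aortic after scaling both arrays to the same trimmed mean. Values below a floor of 635.4, the median of all scaled intensities, were set to the floor, and the highest of 38 background controls, at 1743.4, served as a stricter limit for bounds. Of these controls, 6 on the endocardial and 7 on the aortic array were above the floor of 635.4. A value above that floor can therefore still lie within the background range.

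Of the 9 genes measured, 3 were at least 2-fold lower on the endocardial array, namely Col11a1, Lox and Eln, and 0 were at least 2-fold higher. Over all 2935 genes measured, 4.16% were at least 2-fold lower and 5.93% at least 2-fold higher. The median log2 ratio of the 9 genes was -0.45, beside -0.02 over all genes. The members were chosen with earlier results of these data known, so these comparisons with all genes only describe the list. When the stricter limit of 1743.4 served as the floor, 8 members were measured, of which 2 were at least 2-fold lower, Col11a1 and Lox, and 0 at least 2-fold higher, beside 2.36% and 3.99% of 1904 genes.

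The upstream sequence is shown for the fibrillar chain that passed 2-fold, Col11a1, and for a chain of the main collagen with a small one, Col1a2. Of the 10 members, 5 had a 5′ window in the RefSeq promoter table of build GRCr8 (Col1a2, Col4a1, Col5a1, Col5a2 and Col11a1). The Col11a1 stretch is the 250 bases before the annotated start, chr2:204508886-204509135 on the plus strand, and the Col1a2 stretch runs from 250 to 131 bases before the annotated start, chr4:33518307-33518426 on the plus strand. Capitals mark matches, read on either strand, to the TATA box letters TATAAA, to the CCAAT box, whose letters on the opposite strand are ATTGG, or to the GC box letters GGGCGG. None of these matches overlap.
Col11a1: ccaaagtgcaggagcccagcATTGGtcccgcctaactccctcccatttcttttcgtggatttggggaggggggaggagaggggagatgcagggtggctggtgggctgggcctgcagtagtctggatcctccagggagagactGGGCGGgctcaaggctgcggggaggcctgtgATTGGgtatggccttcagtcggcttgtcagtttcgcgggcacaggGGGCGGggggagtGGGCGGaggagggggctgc
Col1a2: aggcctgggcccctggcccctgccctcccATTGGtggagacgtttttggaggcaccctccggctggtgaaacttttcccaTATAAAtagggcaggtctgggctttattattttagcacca

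The Col11a1 stretch held 2 matches to CCAAT and 3 to GGGCGG, and no TATAAA. The Col1a2 stretch held 1 TATAAA, starting 170 bases before the annotated start, and 1 CCAAT match, at 221 bases. The full 250 bases of the Col1a2 window held no further match. Of the other members with a window, Col5a1 had 1 match to GGGCGG, Col4a1 had 1 to CCAAT and 1 to GGGCGG, and Col5a2 had none. Among 33469 windows of the same 250 bases in the table, 12.9% held TATAAA, 34% held CCAAT and 30.5% held GGGCGG, on either strand. These matches describe the letters and were not tested as binding sites.

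Type I collagen, the main fibril-forming collagen, is built from alpha chains encoded by Col1a1 and Col1a2. The 4 probe sets of Col1a1 gave near-equal intensities. M27207mRNA_s_at read 54687 on the endocardial and 53455 on the aortic array, and Z78279_at read 73117 on the endocardial and 78603 on the aortic array. Z78279_g_at read 63209 on the endocardial and 70772 on the aortic array, and rc_AI231472_s_at read 78367 on the endocardial and 79222 on the aortic array. Of these, 3 were slightly lower and 1 slightly higher on the endocardial array, with log2 ratios from -0.16 to 0.03 (mean -0.06, SD 0.09 over 4 probe sets, which are not replicates). The partner chain Col1a2, with 1 probe set, had an intensity of 64332 on the endocardial and 77303 on the aortic array, a log2 ratio of -0.26.

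Col3a1, the single chain of type III collagen, which is mixed with type I in vessel walls, had 2 probe sets. They read 52794 and 64091 on the endocardial array, against 59228 and 72358 on the aortic array, with log2 ratios of -0.17 and -0.18. The probe sets of types I and III, 7 in all, were exceeded by at most 1.30% of probe sets on either array, which places them near the top of the measured range. The highest reading of any probe set was 96892 on the endocardial and 103990 on the aortic array. Whether ratios are narrowed at such intensities was not tested. For scale, probe sets of the same gene differed in log2 ratio with an SD of 0.39 over 625 genes, so the ratios of Col1a1, Col1a2 and Col3a1 were smaller than the spread among probe sets. That SD compares probe sets on the same 2 arrays, at all intensities above the floor. It does not measure variation between arrays or cultures, so it cannot show which ratios would recur. Col1a1 had a log2 ratio of 0.08 after quantile normalization and 0.07 after a loess on intensity, so its direction was not settled.

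The type V chains, which co-assemble with type I, were lower on the endocardial array by more than the type I chains were. Col5a1 had an intensity of 11605 on the endocardial and 19366 on the aortic array, a log2 ratio of -0.74. Col5a2 had 46397 on the endocardial and 63346 on the aortic array, a log2 ratio of -0.45. Each rested on 1 probe set. The log2 ratio of Col5a1 exceeded the SD of 0.39 among probe sets of a gene, while that of Col5a2 was near it and came to -0.33 after quantile normalization and after the loess. A lower ratio than that of Col5a1 was found for 8.21% of genes, and a lower ratio than that of Col5a2 for 16.93%. Col3a1 and Col5a2 are neighbours in the RefSeq gene table, with 0 genes listed between them, and their log2 ratios were -0.17 and -0.45.

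Col11a1, a chain of the minor fibrillar collagen type XI that is best known from cartilage, had 2 probe sets. Its probe set AJ005396_at read 1379 on the endocardial array, under the highest background control, against 5995 on the aortic array. The measured ratio was 4.35-fold lower, and against the background control it was at least 3.44-fold lower. The other probe set, U20121_at, read 76.1 on the endocardial and 591.6 on the aortic array and was under the floor on both, so it gave no ratio. The difference in Col11a1 therefore rested on 1 probe set. With the floor at the 75th percentile its log2 ratio was -1.22, beside -1.35 for Lox, so the order of these genes was not settled. Across the 6 fibrillar genes the median log2 ratio was -0.36, and without Col11a1 it was -0.26 over 5 genes.

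Col12a1 encodes a fibril-associated collagen, which lies on the surface of type I fibrils and does not form fibrils itself. It had an intensity of 4403 on the endocardial and 4054 on the aortic array. Its log2 ratio of 0.12 was the only one of the 9 gene values above 0, and it was smaller than the SD of 0.39 among probe sets.

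**Figure D1:**
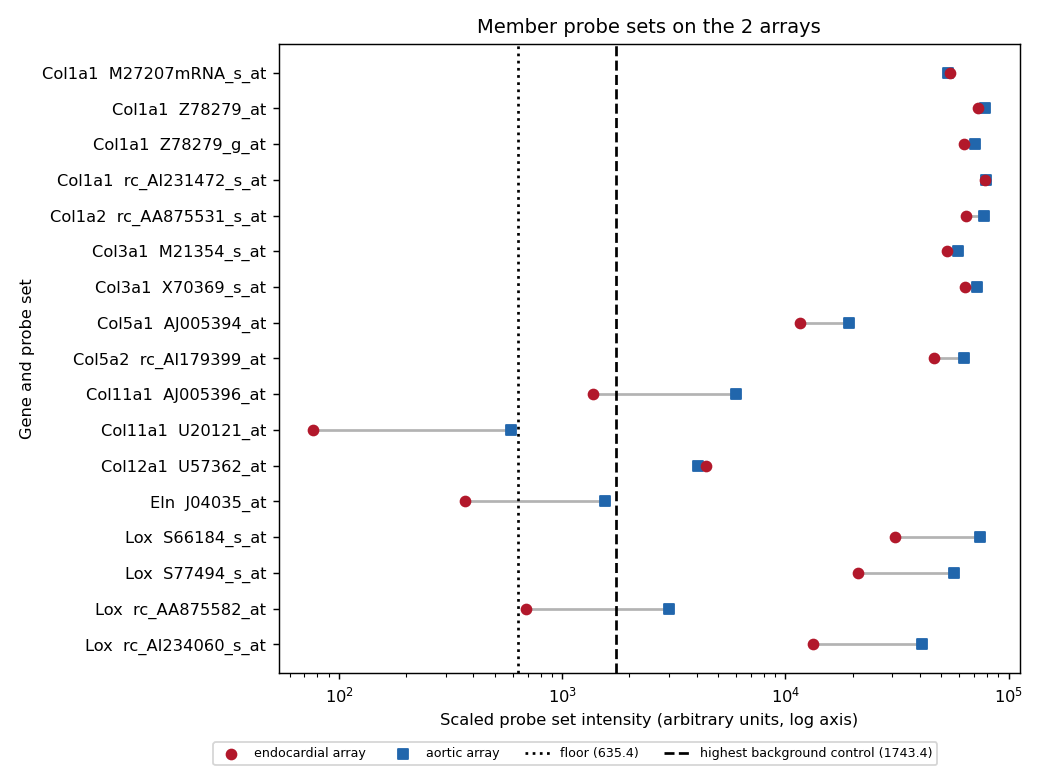
Scaled intensity (log axis, arbitrary units) of each of the 17 probe sets on the endocardial array (circles) and the aortic array (squares), with the floor of 635.4 and the highest background control of 1743.4 as vertical lines. The 4 Lox probe sets and the Col11a1 probe set above the floor were lower on the endocardial array, the other Col11a1 probe set was under the floor on both, while the circles and squares of Col1a1, Col1a2 and Col3a1 nearly coincide.

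Elastin, the polymer that gives arteries their recoil, was dim on both arrays. The 1 probe set of Eln read 367.1 on the endocardial array, under the floor, and 1548 on the aortic array, under the highest background control. Against the floor its level was at least 2.44-fold lower on the endocardial array, but neither value stood above the brightest background control. Its ratio is a difference between values within the background range and does not establish that elastin differed.

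Lox had 4 probe sets, all lower on the endocardial array. The 3 that stood above the highest background control on both arrays were each more than 2-fold lower. S66184_s_at read 30883 on the endocardial and 74126 on the aortic array, which is 2.40-fold lower. S77494_s_at read 21116 on the endocardial and 57099 on the aortic array, or 2.70-fold lower, and rc_AI234060_s_at read 13350.2 on the endocardial and 41137 on the aortic array, or 3.08-fold lower. The dimmest, rc_AA875582_at, read 690.2 on the endocardial array, under the highest background control, against 2995 on the aortic array, and against that control it was at least 1.72-fold lower. The log2 ratios of the 3 bright probe sets ran from -1.62 to -1.26. A lower ratio than that of Lox (median -1.53) was found for 1.36% of genes.

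Most Lox probe sets were bright on both arrays. Among 775 probe sets above the 90th percentile of intensity (8274) on each array, the endocardial reading was at least 2-fold lower for 11 (1.42%) and at least 2-fold higher for 11 (1.42%), and 3 of the 11 lower ones were Lox probe sets. These 3 may measure overlapping parts of the same transcript and are not independent. The other 9 of the 12 bright member probe sets, all of fibrillar collagens, were within 2-fold. The 775 bright probe sets had a median log2 ratio of -0.07, with the 10th percentile at -0.41 and the 90th at 0.32. The 90th percentile limit was chosen after the data were seen.

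**Figure D2:**
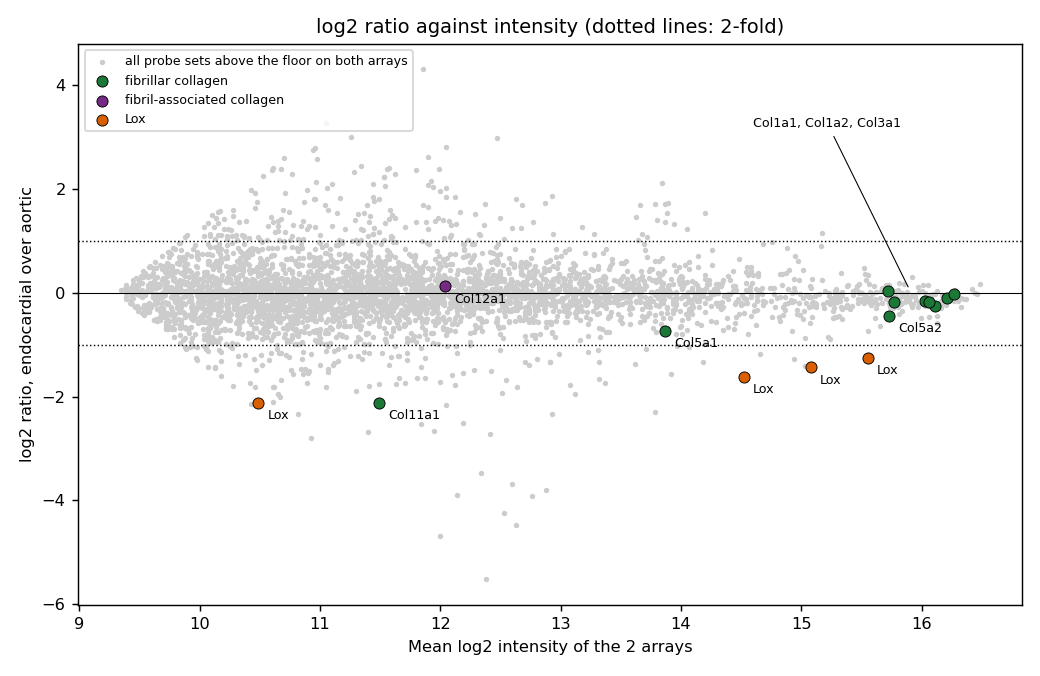
log2 ratio, endocardial over aortic, against the mean log2 intensity of both arrays, for the 3932 probe sets above the floor on both (grey) and the 15 member probe sets among them (coloured by class). The 3 bright Lox probe sets lie below the 2-fold line where few grey points do, whereas the points of Col1a1, Col1a2 and Col3a1 lie near 0.

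Loxl1, the other lysyl oxidase family gene measured, did not share the ratio of Lox. This enzyme, which is needed for elastic fibre renewal in mice, had 2 probe sets. They read 22697.5 and 17639 on the endocardial array, against 19229.5 and 14756 on the aortic array. Both log2 ratios, 0.24 and 0.26, were above 0, while those of the 3 bright Lox probe sets ran from -1.62 to -1.26. The dim Lox probe set was at -0.78 against the highest background control. Probe sets of a gene are not replicates. No other listed cross-linking enzyme was measured.

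The measured collagen genes outside the 10 members were all within 2-fold. Over all genes measured, 4.16% were at least 2-fold lower and 5.93% at least 2-fold higher. Of 8 such genes with a probe set, 5 were above the floor on at least 1 array, with a median log2 ratio of -0.15. Col15a1, a basement membrane zone collagen, had 2290.4 on the endocardial and 3928 on the aortic array (log2 ratio -0.78). Col4a5, a type IV chain of basement membranes, had 4888 on the endocardial and 4920.4 on the aortic array (log2 ratio -0.01). Col8a1, a short-chain collagen of the vascular wall, had 5448 on the endocardial and 4861 on the aortic array (log2 ratio 0.16). Col10a1, a cartilage collagen, had a log2 ratio of -0.32 from 1 of its 2 probe sets, and Col26a1 had -0.15 with both values under the highest background control. Col2a1, Col4a3 and Col9a1 did not reach the floor on either array.

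Genes that build, cut or bind collagen and elastic fibres gave a median log2 ratio of 0.04 over 23 measured of 53 listed, with 2 at least 2-fold higher and 1 at least 2-fold lower, beside 5.93% and 4.16% of all genes measured. With 1743.4 as the floor, 3 were at least 2-fold higher and 1 was at least 2-fold lower, beside 3.99% and 2.36% of genes. Ddr1 was the one added, from 1 probe set. All 7 measured folding and hydroxylation genes were within 2-fold. Serpinh1, the collagen-specific chaperone, had 38771 on the endocardial and 42231 on the aortic array (log2 ratio -0.12), and Ppib, a prolyl isomerase of the endoplasmic reticulum, had a log2 ratio of 0.16. P4ha1, a catalytic subunit of prolyl 4-hydroxylase, had 23647 on the endocardial and 32576 on the aortic array (log2 ratio -0.46). Pcolce, which enhances removal of the procollagen C-propeptide, had a log2 ratio of -0.27.

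The fibril partners held both extremes of this list. Postn, a matricellular protein that binds collagen, had 15939.7 on the endocardial and 2026 on the aortic array (log2 ratio 2.98). Dcn, the small proteoglycan that coats collagen fibrils, had a median of 986.5 on the endocardial, under the highest background control, and 19147 on the aortic array (log2 ratio -3.80, or -3.45 with the floor at that control). The other small proteoglycan Bgn (0.04), the collagen-binding protein Sparc (-0.18) and fibronectin, Fn1 (-0.03), had log2 ratios near 0. Of the elastic fibre list 3 genes were measured, the elastogenic protein Fbln5 with a log2 ratio of 0.04, and the latent TGF beta binding proteins Ltbp1 with -0.19 and Ltbp2 with -0.33. The direction of Ltbp2 was not settled, since its 2 probe sets had log2 ratios of -0.80 and 0.13 and the stricter floor left 0.13.

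Collagen receptors went both ways. Itga1, the alpha subunit of a collagen-binding integrin, had 11220.1 on the endocardial and 4327 on the aortic array, a log2 ratio of 1.37. Its beta partner Itgb1 had 40927 on the endocardial and 22323 on the aortic array, a log2 ratio of 0.87. Ddr2, a receptor tyrosine kinase for fibrillar collagen, had 1886 on the endocardial and 3519 on the aortic array, a log2 ratio of -0.87. Itga1 and Itgb1 rested on 1 probe set each and Ddr2 on 2. Ddr1, an epithelial collagen receptor, had a median log2 ratio of 0.72 over 3 probe sets, of which 2 were under the floor on the aortic array. The stricter floor left 1 of these probe sets, S77585_s_at, which gave a bound of 1.45.

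**Figure D3:**
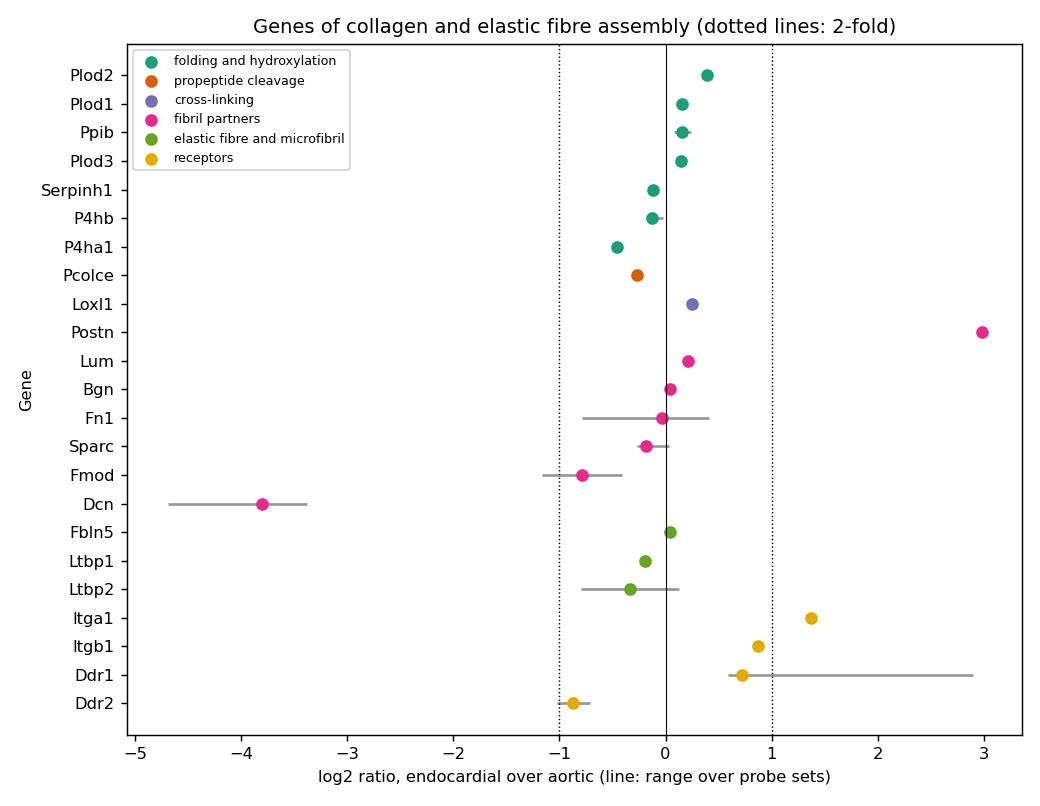
log2 ratio, endocardial over aortic, of the 23 measured genes of collagen and elastic fibre assembly by role, with lines spanning the probe sets of a gene. Postn (2.98) and Itga1 (1.37) lie above the 2-fold line and Dcn (-3.80) lies below it, and the 7 folding and hydroxylation genes lie between -0.46 and 0.39.

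Markers of several cell types were read on the same arrays. Of 7 endothelial markers with a probe set, 3 were above the floor on each array (Flt1, Nos3 and Thbd), and 0 on the endocardial and 1 on the aortic array exceeded the highest background control. Vwf, Pecam1, Kdr and Icam2 were under the floor on both, with Kdr and Icam2 below 0 on both, so the endothelial identity of the cells is taken from the labels. Fibroblast markers other than the members summed to 114599 on the endocardial and 158800.0 on the aortic array, with 6 of 7 above the floor on each. Both sums came mostly from Vim and S100a4. Dcn had 986.5 on the endocardial and 19147 on the aortic array, while Lum went the other way, with 8429 and 7272. Smooth muscle markers summed to 138479 on the endocardial and 87778 on the aortic array, with 4 of 6 above the floor on each, Des below 0 and Myh11 under the floor on both. Tagln had 58742 on the endocardial and 49584 on the aortic array, and Acta2 had 50039 and 26902. The highest value of an endothelial marker was 1885, for Thbd on the aortic array. Macrophage markers summed to 40170.5 on the endocardial, mostly from Lyz2, and 4123 on the aortic array, with 3 and 1 of 5 above the floor and Ptprc under it on both. Cardiomyocyte markers had 1 of 4 above the floor on each array, sums of 1225 on the endocardial and 990.4 on the aortic array, and Actc1 and Nppa below 0 on both. In all of these marker sums, intensities below 0 were counted as 0. The part of these cell types in the differences of Lox, Col11a1 and the type V chains was not tested.

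The control transcripts on the arrays gave similar ends. The ratio of 3′ to 5′ probe sets was 1.09 on the endocardial and 1.11 on the aortic array for beta-actin, and 1.21 on the endocardial and 1.17 on the aortic array for GAPDH. For hexokinase it was 1.69 on the endocardial and 1.75 on the aortic array. The log2 ratios of the beta-actin controls ran from -0.18 to -0.16 and those of the GAPDH controls from -0.54 to -0.39. Those of the dim hexokinase controls ran from -1.44 to -0.55. The differences of Col1a1, Col1a2, Col3a1 and Col5a2 were thus no larger than the largest of a GAPDH control. Those of Col1a2 and Col5a2 were larger than any of a beta-actin control. The largest hexokinase difference, -1.44, exceeded those of Col5a1 (-0.74) and Eln (-1.28), and that of Lox with the stricter floor (-1.35). Among the bright Lox probe sets, S66184_s_at (-1.26) differed by less than this control and S77494_s_at (-1.44) by as much. The remaining bright Lox probe set, rc_AI234060_s_at (-1.62), differed by more. With the main floor Lox was at -1.53. Col11a1 was at -2.12, or -1.78 with the stricter floor.

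**Figure D4:**
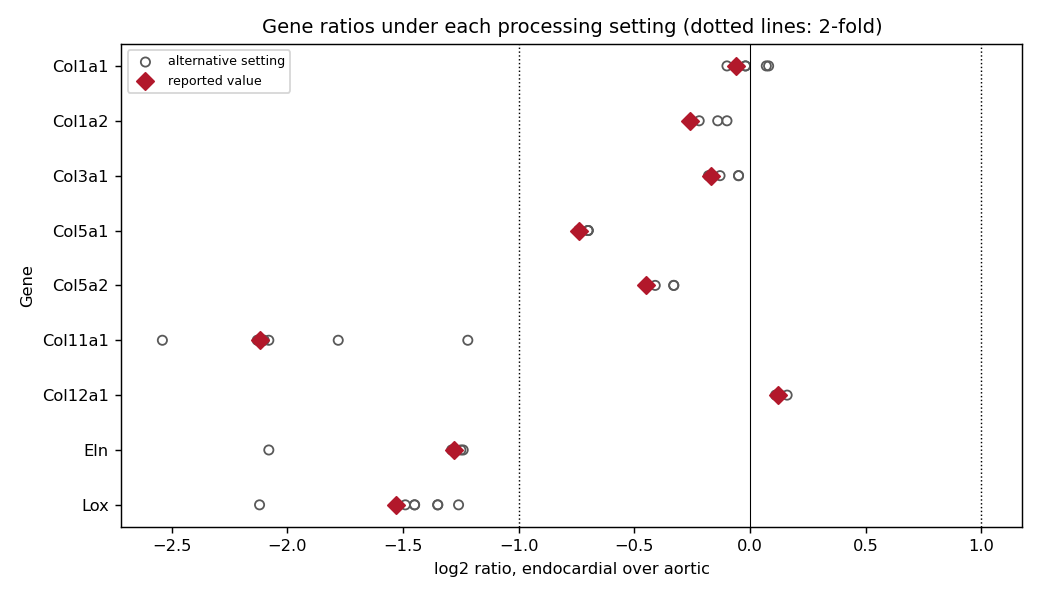
log2 ratio, endocardial over aortic, of each measured member gene as reported (diamonds) and under each alternative of scaling, floor and choice of probe sets (open circles). Lox stays between -2.12 and -1.26, Col11a1 between -2.54 and -1.22, and Col1a1 lies on both sides of 0.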

How the data were processed

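Total RNA of 1 pool of endocardial and 1 pool of aortic endothelial cells was measured on 1 array each. The authors deposited a linear intensity for every probe set and array. The sources used here do not name the software that summarised the probes. The scanner settings of both arrays differed in 2 of 41 fields, scan time and fluidics module.

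Gene values excluded the 59 array controls. All remaining probe sets were scaled to a shared 2% trimmed mean (factors 0.9994 for the endocardial and 1.0006 for the aortic array), and values under the median (635.4) were set to that floor. Probe sets above the floor on at least 1 array were kept, 4808 of 8740. Genes came from the platform annotation, using 7006 probe sets with exactly 1 symbol. All 9 measured members matched a RefSeq gene table (GRCr8) by gene identifier, with unchanged symbols. Each gene was given the median of the log2 ratios, and of the intensities, of its kept probe sets. Genes at a 2-fold difference were counted, with no test. The suffix _s_at, carried by 8 of the 17 member probe sets, marks probes that the manufacturer lists as shared by related sequences.

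The number of arrays limits the precision. The counting step was run on simulated data in which bright genes were changed 4-fold, with noise of SD 0.1. All 100 raised and 100 lowered genes were counted. That noise was below the SD of 0.39 among probe sets and no dim gene was changed. The run therefore checks the counting, not the precision. Alternatives were no rescaling, quantile normalization, centring, a loess (span 0.4), other floors or none, and other choices of probe sets per gene. The members and lists were chosen with earlier results of these data known. Named were every member, every other collagen gene above the floor, and, of the assembly list, genes past 2-fold and the 3 brightest of each role. Python 3.11.15, pandas 2.3.3, scipy 1.17.1 and statsmodels 0.14.6 were used.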

Additional observations from a re-analysis of the deposited data

How the results depend on the processing

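Across 9 alternatives of scaling, floor and probe set choice, the count of members at least 2-fold lower was 3 in all except the floors at the 75th percentile and at the highest background control, where it was 2 because Eln was no longer measured. The count of members at least 2-fold higher was 0 under each. Of 77 gene values under alternatives, 73 moved by less than the SD among probe sets (0.39), 4 moved further and 0 of the called ones changed sign. Those 4 were Col11a1 with the floor at the 75th percentile (-1.22) and with no floor (-2.54), Eln with no floor (-2.08), and Lox with probe sets that carry no letter before the _at suffix (-2.12), an alternative added after the data were seen that leaves 1 dim Lox probe set. Several alternatives could hardly move a value, since the scaling factors were 0.9994 and 1.0006 and floors do not reach genes bright on both arrays. A choice among probe sets leaves a gene with 1 probe set unchanged or unmeasured. The median of the fibrillar genes ran from -0.59 to -0.22. The counts over all genes moved by more than 1.5 times with the floor. A floor at the 75th percentile gave 45 higher and 40 lower genes at 2-fold, a floor at the highest background control gave 76 and 45, and no floor gave 342 and 410, beside 174 and 122 as reported. Scaling and centring moved the median of all genes by less than 0.1. Dim probe sets limit what can be said of Eln and of the second Col11a1 probe set. No paired analysis was possible because each group has 1 array.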

Other observations

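Probe sets of a few matrix genes outside the members disagreed, and they were chosen after their values were seen. The 5 probe sets of Fn1 had log2 ratios, endocardial over aortic, from -0.79 to 0.41, whereas the 4 of Col1a1 spanned -0.16 to 0.03. The 3 probe sets of Ddr1 had log2 ratios from 0.59 to 2.90, of which 2 were under the floor on the aortic array and so give bounds. S77585_s_at, the highest of them, read 4755 on the endocardial array and was below 0 on the aortic array.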
